A study of Homo sapiens with 8 samples.

Results

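The acute phase proteins of the liver were described through 10 genes, SAA1, SAA2, SAA4, CRP, LBP, ORM1, ORM2, HP, HPX and ITIH4, taken from the expression files by Ensembl gene identifier out of 63241 genes in all. Messenger RNA was sequenced from HepG2 and Huh7, which are established human liver cancer cell lines, each as the parental, drug-sensitive line (WT, treatment label control) and as a sorafenib-resistant line (SR, treatment label sorafenib). Sorafenib is a multikinase inhibitor, and the SR lines had been obtained by growth in increasing concentrations of it; whether an SR line is a clone is not given in the sources used here. Each of the 4 groups (HepG2 WT and SR, Huh7 WT and SR) had 2 libraries, 8 in all, labelled as a single batch. Values were in FPKM, in which fragments are scaled to the length of the transcript and the size of the library. Levels can be set side by side between libraries only roughly, as the summed FPKM ran from 384792 in HepG2 WT replicate 1 to 429111 in HepG2 SR replicate 2. Nothing states that the replicates were separate cultures. The p-values therefore measure the spread between these libraries, whose source was not tested, and not a known biological spread.

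The acute phase response is the change in liver secretion that follows infection or injury. Interleukin-6, through gp130, JAK kinases and STAT3, and interleukin-1, through NF-kB, act on hepatocytes together with C/EBP factors, and positive acute phase proteins such as serum amyloid A, C-reactive protein and haptoglobin then rise in plasma, while negative ones such as albumin and transferrin fall. Liver-enriched transcription factors keep many of the same genes active without inflammation.

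The libraries did not group by their labelled cell line, which bears on every value below. Across genes, Pearson's r between libraries on the log2(FPKM + 1) scale was 0.914 to 0.977 within a set of 5, made of both HepG2 WT replicates, HepG2 SR replicate 1 and replicate 2 of either Huh7 group. The first replicates of Huh7 WT and SR had an r of 0.965 as a pair and of 0.731 to 0.783 with the set of 5. The second replicate of HepG2 SR resembled neither, with r of 0.775 to 0.819 and of 0.815 to 0.846. The last 3 libraries are called the libraries that stand apart. HepG2 WT replicate 2 listed 38276 genes above 0 against 27188 to 29071 in the other libraries, and 6594 of them were at 0 in every other library. Group names are those of the labels throughout. An exchange of library labels is possible and was not tested, so the direction of each comparison holds only as far as the labels do. Results were also computed without the libraries that stand apart. The read totals behind the FPKM values were not recovered and the depth is unknown, so no counting interval is given.

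Of the 10 genes, 6 reached 1 FPKM in 2 or more libraries, the filter used for testing (SAA4, ORM1, ORM2, HP, HPX and ITIH4) and 4 did not (SAA1, SAA2, CRP and LBP). By the median over the 8 libraries the order was ORM1 at 160 FPKM, ORM2 at 132, SAA4 at 43.3, HP at 24.7, HPX at 1.76, ITIH4 at 1.59, LBP at 0.136 and SAA2 at 0.0153, with the medians of SAA1 and CRP at 0. The ranges of neighbours in this order overlapped over the libraries. ORM1 nevertheless stood above ORM2 in 8 of 8 libraries.

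The promoters are shown because several members are known targets of the factors named above and the members did not follow one pattern. RefSeq promoters (GRCh38.p14) were found for 5 of the 10 genes: SAA4, HPX, ITIH4, ORM1 and CRP. Each printed run is the 250 bases upstream of the RefSeq start, 5′ to 3′ on the strand of the gene, with capitals marking matches on either strand to 4 motifs: the IL-6 response core CTGGGA, the STAT palindrome TTCNNNGAA, the C/EBP motif TTNNGCAA and an NF-kB motif. The first of them was held by 28.7% of the 35116 RefSeq promoters of the same length, the others by 6.57%, 9.05% and 1.73%.
SAA4, chr11:18236803-18237052, minus strand: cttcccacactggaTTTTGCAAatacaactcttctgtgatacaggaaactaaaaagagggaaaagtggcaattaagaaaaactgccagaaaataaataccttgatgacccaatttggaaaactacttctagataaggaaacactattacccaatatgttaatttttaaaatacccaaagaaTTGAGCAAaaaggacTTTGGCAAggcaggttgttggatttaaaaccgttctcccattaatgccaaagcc
HPX, chr11:6440988-6441237, minus strand: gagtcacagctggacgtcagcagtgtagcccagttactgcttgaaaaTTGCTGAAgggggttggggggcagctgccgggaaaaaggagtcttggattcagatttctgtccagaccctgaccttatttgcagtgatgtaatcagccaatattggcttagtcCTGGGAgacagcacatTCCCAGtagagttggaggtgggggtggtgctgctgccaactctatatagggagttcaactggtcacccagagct
ITIH4, chr3:52830673-52830922, minus strand: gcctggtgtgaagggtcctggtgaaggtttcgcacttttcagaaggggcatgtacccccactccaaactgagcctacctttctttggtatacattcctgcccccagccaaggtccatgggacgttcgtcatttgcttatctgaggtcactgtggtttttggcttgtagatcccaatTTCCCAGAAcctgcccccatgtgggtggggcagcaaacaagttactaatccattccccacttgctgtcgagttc
ORM1, chr9:114322848-114323097, plus strand: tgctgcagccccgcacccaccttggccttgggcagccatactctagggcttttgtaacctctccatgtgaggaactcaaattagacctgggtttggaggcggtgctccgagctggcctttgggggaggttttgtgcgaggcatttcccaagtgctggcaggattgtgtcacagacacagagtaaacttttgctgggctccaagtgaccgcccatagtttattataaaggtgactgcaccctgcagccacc
The SAA4 window held 3 C/EBP matches, the nearest ending 47 bases before the start. The HPX window held 2 IL-6 response cores, at 90 to 85 and at 74 to 69 bases before the start, and 1 C/EBP match. In ITIH4 the STAT palindrome, 74 to 66 bases before the start, overlapped an IL-6 response core. The windows of ORM1 and CRP (chr1:159714590-159714839, minus strand) held none of these letters. A match is a description of the letters and not a site of binding, and the windows of HPX and ITIH4 lie inside the longer extent that GENCODE release 29 gives these genes. Those of SAA4 and ORM1 reach in part into the genes of that release, which begin at 18236893 (minus strand) and 114323056 (plus strand). The SAA4 matches at 69 to 62 and at 54 to 47 bases before the RefSeq start lie in that part.

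SAA1 and SAA2, the acute phase serum amyloid A proteins carried on high-density lipoprotein, were close to silent in 7 of the 8 libraries. SAA1 (chromosome 11, 18266174 to 18269977, plus strand, GRCh38) was 0 and 0.142 FPKM in HepG2 WT, 0 and 2.42 in HepG2 SR, 0.0172 and 0 in Huh7 WT, and 0 in both Huh7 SR libraries. SAA2 (chromosome 11, 18239223 to 18248643, minus strand) was 0 and 0.390 FPKM in HepG2 WT, 0.0336 and 5.83 in HepG2 SR, 0 and 0.0306 in Huh7 WT, and 0 in both Huh7 SR libraries. The highest value of each gene was in the library labelled HepG2 SR replicate 2, one of those that stand apart, and the second highest was in HepG2 WT replicate 2. Of the 50-base windows of the SAA1 transcript, 54.2% also occurred in SAA2, and 17.3% of those of SAA2 occurred in SAA1, so reads could have been split between them. Neither gene passed the filter, and with no filter neither was called in either cell line (limma, unadjusted p in HepG2 0.187 for SAA1 and 0.207 for SAA2).

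SAA4, the constitutive serum amyloid A protein of high-density lipoprotein, behaved unlike SAA1 and SAA2 and was the one member called in either comparison of SR with WT. SAA4 (chromosome 11, 18231349 to 18236893, minus strand) shared 0% of its 50-base windows with SAA1 or SAA2, and the SAA2-SAA4 readthrough gene that overlaps it was listed at 0 in all 8 libraries. In Huh7 it was 7.81 and 3.43 FPKM in WT and 23.0 and 85.1 in SR, that is 5.62 ± 3.10 and 54.0 ± 43.9 (SD, n = 2 each), and both SR libraries lay above both WT libraries. The log2 fold change was 2.86 (SE 1.20, 95% interval 0.01 to 5.71, limma unadjusted p = 0.0493, Benjamini-Hochberg adjusted p = 1). In HepG2 it was 71.0 and 63.7 FPKM in WT and 160 and 10.8 in SR. There the WT libraries lay close together and the SR libraries lay on either side of them, so the log2 fold change of -0.64 (SE 1.20, limma unadjusted p = 0.609, adjusted p = 0.972) averaged a higher and a lower library. Without HepG2 SR replicate 2 it was 1.24 and without HepG2 SR replicate 1 it was -2.53, and this last value passed the unadjusted threshold (limma unadjusted p = 0.0245).

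The SAA4 call in Huh7 depended on single libraries, although its direction did not. The log2 fold change lay between 1.94 (without Huh7 SR replicate 2) and 3.78 (without Huh7 SR replicate 1) when each library was left out in turn. By limma the call was lost when any of 5 libraries was left out: HepG2 WT replicate 1 or 2 (unadjusted p = 0.0731 each), Huh7 WT replicate 1 (unadjusted p = 0.0705) or 2 (unadjusted p = 0.172), or Huh7 SR replicate 2 (unadjusted p = 0.223). In the 5 libraries left without those that stand apart, SAA4 was 4.28 higher in Huh7 SR on the log2 scale, but that fit takes its replicate spread from the 2 HepG2 WT libraries alone. The difference between the cell lines in the SAA4 change was 3.50 (SE 1.70, limma unadjusted p = 0.0786, adjusted p = 1) and was not called.

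CRP and LBP, the 2 pattern recognition proteins among the members, were not expressed at a level that could be compared. CRP (chromosome 1, 159712289 to 159714589, minus strand), which binds phosphocholine on bacteria and damaged cells, was 0.0289 FPKM in HepG2 WT replicate 2 and listed at 0 in the other 7 libraries. LBP (chromosome 20, 38346356 to 38377023, plus strand), which hands bacterial lipopolysaccharide to CD14, was 0 and 0.269 FPKM in HepG2 WT, 0 and 0.336 in HepG2 SR, 0.387 and 0 in Huh7 WT, and 0.249 and 0.0234 in Huh7 SR. No library reached 1 FPKM for either gene, and with no filter neither was called in either cell line.

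ORM1 and ORM2 encode the alpha-1-acid glycoproteins (orosomucoids), plasma carriers of basic drugs, and they made up most of the members' expression. ORM1 (chromosome 9, 114323056 to 114326475, plus strand) was 178 and 250 FPKM in HepG2 WT, 243 and 27.9 in HepG2 SR, 33.3 and 142 in Huh7 WT, and 84.8 and 257 in Huh7 SR. ORM2 (chromosome 9, 114329869 to 114333252, plus strand), its neighbour, was 157 and 206 FPKM in HepG2 WT, 206 and 13.5 in HepG2 SR, 9.74 and 108 in Huh7 WT, and 26.0 and 215 in Huh7 SR. Both genes were lowest in the 3 libraries that stand apart, and SR and WT overlapped in each cell line. The log2 fold changes in HepG2 were -1.34 for ORM1 (SE 1.13, limma unadjusted p = 0.276) and -1.72 for ORM2 (SE 1.63, unadjusted p = 0.325). Without HepG2 SR replicate 2 both were 0.20, and without HepG2 SR replicate 1 they were -2.87 and -3.64, of which the first passed the unadjusted threshold (limma unadjusted p = 0.0309). In Huh7 the values were 1.09 for ORM1 (SE 1.13, unadjusted p = 0.369) and 1.16 for ORM2 (SE 1.63, unadjusted p = 0.499), and without Huh7 WT replicate 1 they were 0.06 and -0.51.

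The 2 orosomucoid genes kept a common proportion in the 5 like libraries and not in the others. ORM2 gave 43.3% to 46.8% of their summed FPKM in those 5 libraries, against 32.5% in HepG2 SR replicate 2, 22.6% in Huh7 WT replicate 1 and 23.5% in Huh7 SR replicate 1. Of the 50-base windows of ORM1, 47.4% also occurred in ORM2 and 50.2% the other way, so how reads were divided between them is uncertain, and the sum of both is the safer value. That sum was 335 and 456 FPKM in HepG2 WT, 449 and 41.4 in HepG2 SR, 43.1 and 249 in Huh7 WT, and 111 and 472 in Huh7 SR. It formed 67.7% to 97.9% of the members' summed FPKM in 7 libraries and 17.5% in HepG2 SR replicate 2.

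HP and HPX encode the plasma scavengers of free haemoglobin and of haem, haptoglobin and hemopexin. HP (chromosome 16, 72054592 to 72061055, plus strand) was 6.57 and 60.5 FPKM in HepG2 WT, 47.9 and 60.9 in HepG2 SR, 0 and 0.890 in Huh7 WT, and 0.0290 and 42.8 in Huh7 SR. Huh7 SR replicate 2 was the one Huh7 library in the range of HepG2. The log2 fold changes were 1.35 in HepG2 (SE 1.72, limma unadjusted p = 0.459) and 2.29 in Huh7 (SE 1.72, unadjusted p = 0.227). The HepG2 value was -0.16 without HepG2 WT replicate 1. The Huh7 value was -0.42 without Huh7 SR replicate 2 and 4.99, past the unadjusted threshold (limma unadjusted p = 0.00575), without Huh7 SR replicate 1.

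HP was the one member called between the cell lines. Averaged over WT and SR it was lower in Huh7 than in HepG2, with a log2 difference of -3.50 (SE 1.22, limma unadjusted p = 0.0245, adjusted p = 0.813), between -2.15 and -4.86 with each library left out. The call was lost without HepG2 WT replicate 2 (limma unadjusted p = 0.0826), HepG2 SR replicate 1 (unadjusted p = 0.0529), HepG2 SR replicate 2 (unadjusted p = 0.0618) or Huh7 WT replicate 1 (unadjusted p = 0.0631), and without the libraries that stand apart the difference was -1.84 (unadjusted p = 0.179). Without Huh7 SR replicate 1 it was -2.15 and still called (unadjusted p = 0.0313). HPR, a near copy of HP in which 37.2% of the 50-base windows are shared with it, was 1.38, 17.1, 12.7 and 11.5 FPKM in the 4 HepG2 libraries and 0, 0.290, 0 and 10.02 in those of Huh7. The ratio of HPR to HP lay between 0.188 and 0.326 in the 6 libraries with both above 0, and reads of the 2 genes could have been exchanged. HP also overlaps TXNL4B on the opposite strand, and no source says that strand was used in counting.

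HPX (chromosome 11, 6431049 to 6442617, minus strand) was 1.22 and 13.8 FPKM in HepG2 WT, 1.97 and 115 in HepG2 SR, 0.874 and 0.557 in Huh7 WT, and 1.67 and 1.86 in Huh7 SR. The highest library, HepG2 SR replicate 2, was the library in which the orosomucoids, SAA4 and ITIH4 were lowest within HepG2. The log2 fold change in HepG2 was 1.69 (SE 1.64, limma unadjusted p = 0.339), 4.33 without HepG2 SR replicate 1 (unadjusted p = 0.00742) and -0.95 without HepG2 SR replicate 2. In Huh7 both SR libraries lay above both WT libraries and each group was close within itself, at 0.715 ± 0.224 and 1.76 ± 0.137 FPKM (SD, n = 2 each). The log2 fold change there was 0.69 (SE 1.64, 95% interval -3.21 to 4.60, limma unadjusted p = 0.686), with an error set by the spread in all 4 groups, and it lay between 0.56 and 0.83 with each library left out. With a pseudocount of 0.1 in place of 1 it was 1.22 (unadjusted p = 0.538).

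ITIH4, a heavy chain of the inter-alpha-trypsin inhibitor family that is released during the acute phase, was weakly expressed. ITIH4 (chromosome 3, 52812975 to 52831479, minus strand) was 2.59 and 6.49 FPKM in HepG2 WT, 3.73 and 0.593 in HepG2 SR, 0.126 and 0.546 in Huh7 WT, and 0.0761 and 5.58 in Huh7 SR. SR and WT overlapped in both cell lines. The log2 fold changes were -0.92 in HepG2 (SE 0.94, limma unadjusted p = 0.363) and 1.01 in Huh7 (SE 0.94, unadjusted p = 0.318). The Huh7 value was -0.29 without Huh7 SR replicate 2, and 2.32 (unadjusted p = 0.0289) without Huh7 SR replicate 1. AC006254.1 on the same strand and ITIH4-AS1 on the opposite strand overlap the gene.

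**Figure D1:**
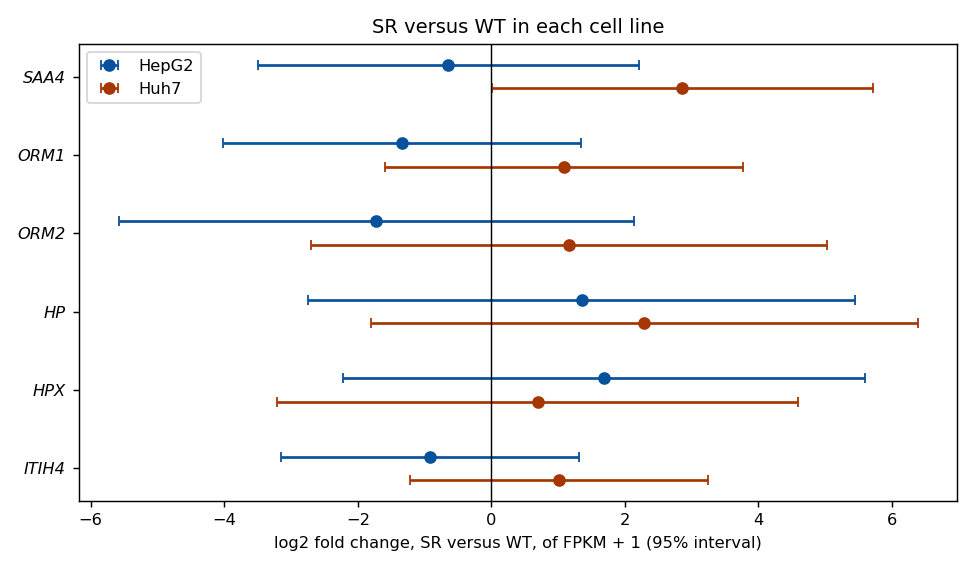
Log2 fold change of SR versus WT on the log2(FPKM + 1) scale (horizontal axis) for the 6 genes that passed the filter, in HepG2 and Huh7, with 95% intervals from limma. The interval of SAA4 in Huh7, 0.01 to 5.71, is the one that does not reach 0, and the 6 points of Huh7 lie above 0 while those of HepG2 lie on both sides.

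Over the members, HepG2 gave no common direction and Huh7 a common one in the fit with all libraries. In HepG2, 2 of the 6 tested genes were above 0 and 4 below, with a median log2 fold change of -0.78 against -0.03 over all 15173 genes tested. Limma called 0 members at a log2 change of 0.5 or more in size and an unadjusted p under 0.05, where 2.14% of all genes were called, and 0 members had an unadjusted p under 0.05. SR and WT did not overlap in 0 of 6 members, against 38.2% of all genes, and 0 members and 0% of all genes had an adjusted p under 0.05 (325 genes had an unadjusted p under 0.05). In Huh7, 6 of 6 tested genes were above 0, against 44.7% of all genes, with a median of 1.12 against -0.05. SAA4 was called, where 1.87% of all genes were, and SAA4 and HPX did not overlap between SR and WT, where 22% of all genes did not. By adjusted p, 0 members and 0% of all genes were called in Huh7 (283 genes and 1 member had an unadjusted p under 0.05). Without Huh7 SR replicate 2, 3 of the 6 members were above 0 in Huh7 and the median was -0.00014. That fit set SR replicate 1 against both Huh7 WT libraries, of which replicate 2 belongs to the set of 5. Without the libraries that stand apart 6 of 6 were above 0, with a median of 1.54.

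Averaged over both cell lines, SR versus WT gave 4 of 6 members above 0 and a median of 0.58. Limma called 0 members, against 3.93% of all genes, and 0 at an adjusted p under 0.05, against 0%, with 0 members and 597 genes at an unadjusted p under 0.05. The average values ran from -0.28 for ORM2 (SE 1.15) to 1.82 for HP (SE 1.22). Between the cell lines, 6 of 6 members were below 0 in Huh7 with a median of -1.35 against 0.03 over all genes, and HP was called, where 4.9% of all genes were and 0% by adjusted p. In the test of the difference between the cell lines in the SR change, 0 members were called and 0 had an unadjusted p under 0.05 (limma), where 0.606% of all genes were called and 0% by adjusted p. An SR change in one cell line was therefore not shown to differ from that in the other for any member.

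**Figure D2:**
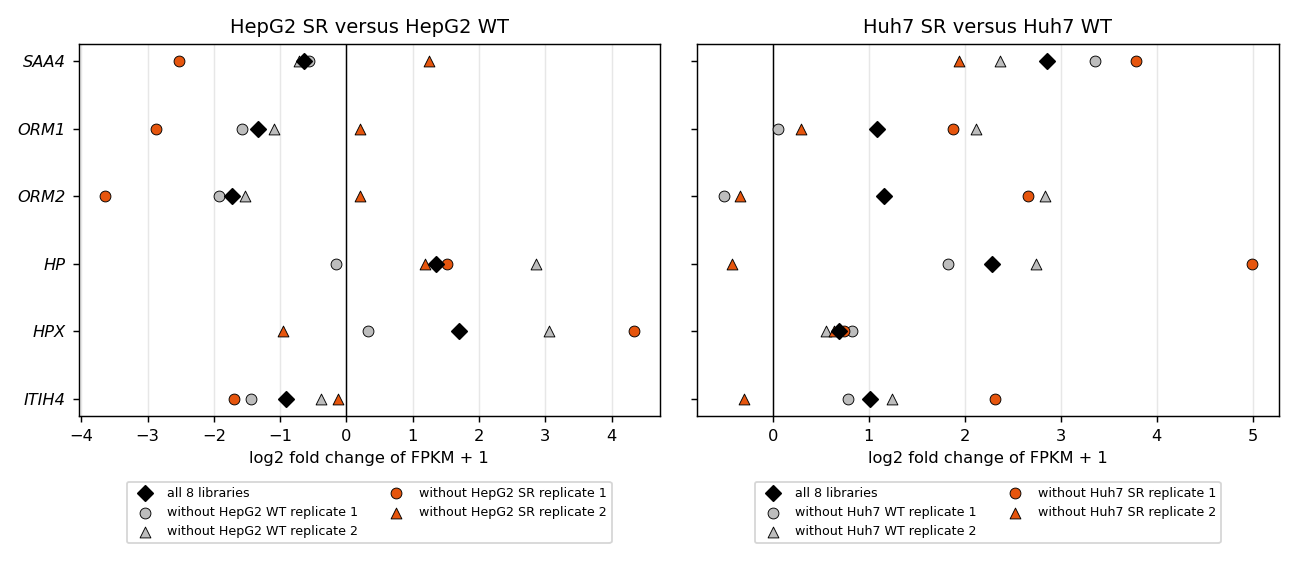
Log2 fold change of SR versus WT (horizontal axis, log2(FPKM + 1) scale) for the 6 tested genes in each cell line, with all 8 libraries (diamonds) and without each of the 4 libraries of that line. In HepG2, SAA4 moves from -2.53 to 1.24 and HPX from -0.95 to 4.33 as an SR library is left out, and in Huh7 SAA4 stays between 1.94 and 3.78.

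The other genes of the response were described from lists of 24 further positive and 10 negative acute phase genes. Over all genes tested, 2.14% were called in HepG2 and 1.87% in Huh7, the shares that apply to each list below. Of the positive ones 22 were tested. In Huh7, 21 of 22 were above 0, with a median log2 fold change of 0.98, and FGL1, a fibrinogen-like hepatokine, was called. In HepG2, 13 of 22 were above 0, with a median of 0.11 and 0 called by limma (0 at an unadjusted p under 0.05). FGL1 was 6.91 and 8.29 FPKM in Huh7 WT and 20.4 and 79.1 in Huh7 SR. Both SR libraries were higher, where SR and WT did not overlap for 22% of all genes. FGL1 was not singled out by this. Its log2 fold change was 2.27 (SE 0.59, limma unadjusted p = 0.00667, adjusted p = 1) and it was called in all 19 alternatives run for it, between 1.32 without Huh7 SR replicate 2 and 3.22 without Huh7 SR replicate 1. Without Huh7 SR replicate 2, 12 of 22 positive genes were above 0 in Huh7, with a median of 0.01. With Huh7 SR replicate 1 left out instead, 19 of 22 were above 0, with a median of 1.67. Without the libraries that stand apart 21 of 22 were above 0, also with a median of 1.67. The median over all genes was -0.11 there and without Huh7 SR replicate 1. Calls are not counted in these fits, which have 1 library in a group.

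The negative acute phase genes, which fall during the response in the liver, lay in the same direction as the members in Huh7. In Huh7, 9 of 9 tested were above 0 with a median of 1.997, and TF, SERPINA6 and ITIH2 were called, where 1.87% of all genes were. TF (transferrin, the iron carrier) was 17.4 and 26.0 FPKM in Huh7 WT and 43.9 and 211 in Huh7 SR, a log2 fold change of 2.13 (SE 0.70, limma unadjusted p = 0.0193). SERPINA6 (corticosteroid-binding globulin) changed by 2.01 (SE 0.60, limma unadjusted p = 0.0128) and ITIH2 (a heavy chain of inter-alpha-trypsin inhibitor) by 1.63 (SE 0.61, limma unadjusted p = 0.0332), each with an adjusted p of 1. Without Huh7 SR replicate 2 the 3 values were 1.01, 1.13 and 0.77 and none was called, and 5 of 9 negative genes were above 0, with a median of 0.03. In the other direction, without Huh7 SR replicate 1, they were 3.25, 2.88 and 2.50, and 9 of 9 negative genes were above 0, with a median of 3.25. Without the libraries that stand apart 9 of 9 were above 0 too, with a median of 2.53. The median over all genes was -0.11 there and without Huh7 SR replicate 1. TF was also not called without Huh7 WT replicate 1 (1.85, unadjusted p = 0.0837), nor was ITIH2 without Huh7 WT replicate 1 (unadjusted p = 0.0817), Huh7 WT replicate 2 (unadjusted p = 0.0909) or either HepG2 WT library (unadjusted p = 0.0519 each). ALB (albumin) was 11.98 and 604 FPKM in Huh7 WT, 42.3 and 2891 in Huh7 SR, and between 2139 and 4713 in HepG2, and was not called. In HepG2, 6 of 9 negative genes were above 0, with a median of 0.42 and 0 called by limma (0 at an unadjusted p under 0.05).

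The list of hepatocyte markers moved with these genes. In Huh7, 15 of its 15 tested genes of 16 were above 0, with a median of 1.46, and TF and HNF4A were called. Its summed FPKM was 2146 to 2807 in Huh7 WT and 2997 to 9647 in Huh7 SR, against 8296 to 9917 in HepG2 WT and 9030 to 10462 in HepG2 SR. CYP3A4, the gene of the list not tested, was at most 0.136 FPKM in any library, and 0 in both Huh7 WT libraries. In HepG2, 7 of 15 were above 0, with a median of -0.05. Without Huh7 SR replicate 2, 12 of 15 were above 0 in Huh7, with a median of 0.57. The lists share members with those of acute phase genes (ALB, TTR, TF, APOA1, SERPINA1 and FGB), and their part in the result was not tested. In such bulk libraries, fewer cells of a type and less RNA per cell cannot be told apart.

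Markers of other liver cells were checked in the same way. Among 8 macrophage markers PTPRC was at most 0.0258 FPKM in any library and MARCO at most 0.191, whereas CD68 was 3.94 to 29.1 over the 8 libraries and CD14 0.0575 to 6.27. LYZ (lysozyme) gave most of the summed 62.8 to 73.6 FPKM in Huh7 WT and 84.3 to 1066 in Huh7 SR and was itself called in Huh7 (log2 fold change 2.51, SE 1.05, limma unadjusted p = 0.0497, adjusted p = 1), a call that was lost without any of the 4 HepG2 libraries, Huh7 WT replicate 2 or Huh7 SR replicate 2. Of the 3 macrophage markers tested (CD14, CD68 and LYZ), 2 were above 0 in either line, with medians of 0.80 in Huh7 and 0.23 in HepG2. The list summed to 245 to 294 FPKM in HepG2 WT and 830 to 906 in HepG2 SR. Stellate cell and fibroblast markers summed to 59.1 to 62.9 FPKM in HepG2 WT, 9.07 to 42.1 in HepG2 SR, 2.69 to 25.6 in Huh7 WT and 1.65 to 44.3 in Huh7 SR, most of it ACTA2 in the 5 like libraries, with DCN at most 0.0334. The 7 endothelial markers summed to between 0.997 and 4.68 FPKM. The 8 cholangiocyte and progenitor markers summed to between 284 and 1289 FPKM, with 4 above and 4 below 0 in each cell line and 0 called by limma (0 at an unadjusted p under 0.05). Some genes of the list divided the libraries that stand apart from the other 5, and others did not. KRT19, a keratin of bile duct cells, was 0.179 to 2.37 FPKM in the 3 libraries and 155 to 760 in the 5, EPCAM 7.03 to 11.04 against 77.1 to 157, and SPP1 0.0236 to 6.36 against 121 to 823. CD24 ran the other way, at 266 to 325 FPKM in the 3 and 3.67 to 9.71 in the 5. So did CFTR at a low level, at 0.389 to 1.77 against 0 to 0.166. SOX9, PROM1 and KRT7 overlapped between the 3 and the 5. Their part in the results was not tested.

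**Figure D3:**
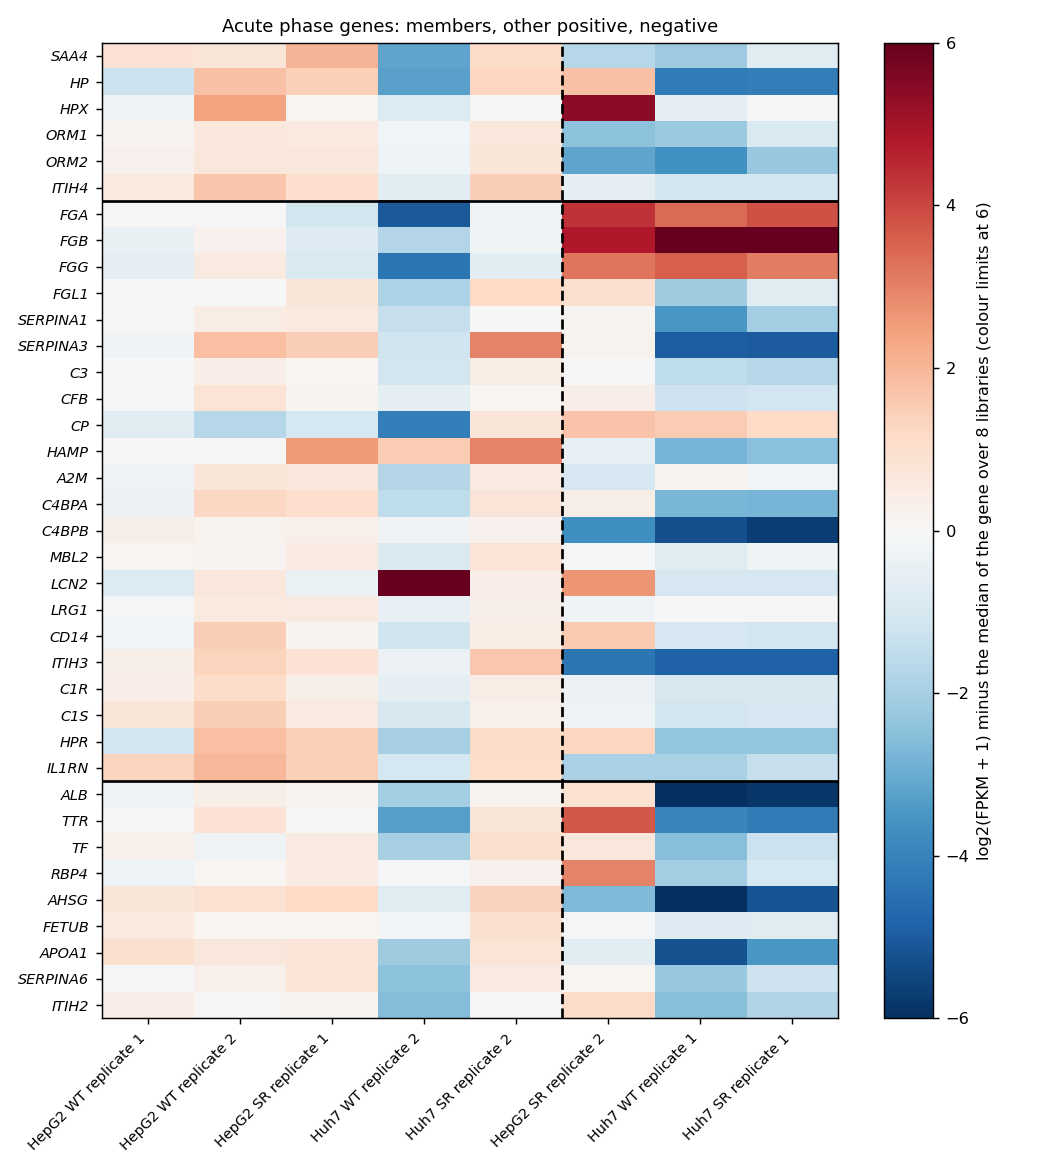
Acute phase genes that passed the filter (rows: the 6 members, 22 other positive and 9 negative genes, separated by lines) in the 8 libraries (columns, the 3 that stand apart to the right of the dashed line). Colour gives log2(FPKM + 1) minus the median of the gene over the libraries, with colour limits at 6. FGA, FGB and FGG are high and the orosomucoids low to the right of the dashed line, and HPX is high in HepG2 SR replicate 2.

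The fibrinogen genes, positive acute phase genes that respond to interleukin-6, ran opposite to the orosomucoids between the 3 libraries that stand apart and the other 5. FGB was 128 FPKM in HepG2 SR replicate 2, 380 in Huh7 WT replicate 1 and 327 in Huh7 SR replicate 1, the 3 libraries with the lowest ORM1, and between 0.386 and 4.51 in the other 5. FGA showed the same division, at 594 to 1153 FPKM against 0.702 to 56.5. SERPINA1 (alpha-1-antitrypsin) did not, at 54.9 to 710 FPKM in the 3 libraries and 243 to 950 in the 5. Within the 5, Huh7 WT replicate 2 was lowest both for ORM1, at 142 FPKM, and for FGB, at 0.386.

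Interleukin-6 itself was near 0 and its receptors were expressed. IL6 was at most 0.108 FPKM in any library. IL6R, the interleukin-6 receptor, was 28.3 and 10.7 FPKM in HepG2 WT, 19.2 and 1.61 in HepG2 SR, 11.95 and 25.8 in Huh7 WT, and 20.3 and 14.6 in Huh7 SR. IL6ST (gp130, the signalling subunit) lay between 15.6 and 35.0 FPKM over the 8 libraries. Of 12 tested cytokines and receptors, 4 were above 0 in HepG2 and 6 in Huh7, with medians of -0.37 and 0.01, and limma called 0 in either line (0 at an unadjusted p under 0.05). IL6R was lowest in HepG2 SR replicate 2, where ORM1 was lowest too. In Huh7 WT and SR replicate 1, ORM1 was 33.3 and 84.8 FPKM and IL6R 11.95 and 20.3. In HepG2 WT replicate 2 IL6R was 10.7 FPKM with ORM1 at 250. A link between the levels of these genes was not tested.

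Among 19 signal transducers and feedback genes, 6 were above 0 in HepG2 (median -0.27, 0 called by limma and 0 at an unadjusted p under 0.05) and 4 in Huh7 (median -0.30, 1 called). JAK1, a kinase bound to gp130, was 116 and 45.4 FPKM in Huh7 WT and 38.8 and 21.0 in Huh7 SR. Its log2 fold change was -1.31 (SE 0.52, limma unadjusted p = 0.040, adjusted p = 1), between -0.65 without Huh7 WT replicate 1 and -1.98 without Huh7 WT replicate 2, and the call was kept in 2 of 8 fits that left out a library. The p-values without the other libraries were 0.0642 and 0.0643 for HepG2 WT replicates 1 and 2, 0.0548 and 0.0563 for HepG2 SR replicates 1 and 2, 0.239 for Huh7 WT replicate 1 and 0.194 for Huh7 SR replicate 2. STAT3 (the factor that interleukin-6 activates) was 66.2 and 67.4 FPKM in HepG2 WT, 46.9 and 28.98 in HepG2 SR, 31.0 and 36.5 in Huh7 WT, and 22.5 and 37.8 in Huh7 SR. SOCS3, the feedback inhibitor that STAT3 induces, stayed between 0.260 and 1.44 FPKM, and NFKBIA, the feedback inhibitor of NF-kB, between 38.4 and 54.7 in the 5 like libraries and 11.5 to 23.1 in the 3 others.

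Transcription factors of acute phase promoters held the one gene of these lists that was called in both cell lines. The share of all genes called in both is not given here. CEBPA, a liver-enriched C/EBP factor, was 17.9 and 27.2 FPKM in HepG2 WT and 41.5 and 78.2 in HepG2 SR. In Huh7 it was 12.001 and 14.5 FPKM in WT and 42.9 and 27.4 in SR. In each line both SR libraries were higher than both WT libraries. SR and WT did not overlap, in either direction, for 38.2% of all genes in HepG2 and 22% in Huh7. The log2 fold changes of CEBPA were 1.33 (SE 0.44, limma unadjusted p = 0.0204, adjusted p = 0.956) and 1.32 (SE 0.44, unadjusted p = 0.0213, adjusted p = 1). In HepG2 the call was lost without HepG2 WT replicate 1 (1.04, unadjusted p = 0.12) and without HepG2 SR replicate 2 (0.88, unadjusted p = 0.121), and in Huh7 without Huh7 WT replicate 1 (1.19, unadjusted p = 0.0844) and without Huh7 SR replicate 1 (1.003, unadjusted p = 0.116). CEBPB, the C/EBP factor that mediates the response to interleukin-6, was 102 and 124 FPKM in Huh7 WT and 49.3 and 34.8 in Huh7 SR, a log2 fold change of -1.42 (SE 0.41, limma unadjusted p = 0.0106, adjusted p = 1). Without Huh7 SR replicate 2 it was -1.17 and not called (unadjusted p = 0.0577).

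HNF4A, a nuclear receptor of hepatocytes, was 32.2 and 22.2 FPKM in Huh7 WT and 55.7 and 50.2 in Huh7 SR, a log2 fold change of 0.96 (SE 0.40, limma unadjusted p = 0.0498, adjusted p = 1). The call was kept without HepG2 WT replicate 1 (unadjusted p = 0.0444) or replicate 2 (unadjusted p = 0.0442) and lost without any of the other 6 libraries, at p between 0.0503 and 0.202. CEBPD lay between 6.81 and 39.3 FPKM and was not called. Of the 16 factors tested, 11 were above 0 in HepG2 (median 0.14) and 10 in Huh7 (median 0.27). Partners and receptors of the members gave 2 of 7 tested genes above 0 in HepG2 (median -0.33, 0 called by limma and 0 at an unadjusted p under 0.05) and 6 of 7 in Huh7 (median 0.86), where ITIH2 was called.

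The members differed in how they followed one another over the 8 libraries, which carry a single batch label and fall into unlike profiles, so the correlations are given as descriptions. Pearson's r of log2(FPKM + 1) was 0.98 between ORM1 and ORM2, 0.81 between SAA4 and ITIH4, 0.61 between SAA4 and HP, -0.05 between SAA4 and HPX, and -0.39 between HPX and ORM1. The 5 genes whose values followed the mean of the 6 tested members most closely, among genes with a mean FPKM of at least 1, were BHMT (r = 0.989), SECTM1 (0.987), VASN (0.984), TMPRSS6 (0.978) and FHOD1 (0.972), over 8 libraries. All 5 were expressed at a low level, from 0.153 FPKM for BHMT in Huh7 WT replicate 1 to 8.74 for FHOD1 in HepG2 SR replicate 1.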

How the data were processed

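Messenger RNA was enriched with oligo(dT) beads, and libraries were prepared with an NEBNext kit. For each of the 8 libraries the authors deposited 1 FPKM value per gene, without pooling replicates, and used edgeR for their own differential expression. FPKM are already scaled for depth and length, and the way reads of near-identical genes were divided is carried into each value. The submitters' processing notes name fastp 0.20.0 and GRCh38. The aligner, the quantification tool and the annotation are not given in the sources used here. Whole reads were not recovered: only 9.31% to 15.1% of the low values fell 0.02 reads or less from a whole number, where chance gives 4.0%.

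The members, the gene lists and the tests were chosen with earlier results of these data known. Samples were grouped by their labels. Symbols were found for 62666 of 63241 identifiers, and positions came from GENCODE release 29. The 15173 genes that reached 1 FPKM in 2 or more libraries were tested as log2(FPKM + 1), a scale that shrinks the change of low genes, with limma 3.58.1 in R 4.3.3 (lmFit, eBayes with trend), with all 8 libraries and a mean for each of the 4 groups. This left 4 residual degrees of freedom, and the median posterior standard deviation was 0.48 on the log2 scale. Genes were called at a log2 change of 0.5 or more in size and an unadjusted p under 0.05, the thresholds of the study, and the Benjamini-Hochberg adjusted p over all 15173 genes was given beside. All p-values are two-sided.

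Named genes were the 10 members, the genes called in SR versus WT in either line in each of 6 lists of the response (at most 3 per list and line), 14 further genes, of which 1 is not reported here (IL6R, IL6ST, STAT3, SOCS3, CEBPB, CEBPD, HNF4A, NFKBIA, HPR, FGB, SERPINA1, ALB and TF), and the 5 genes most like the members. IL6, FGA, FGG, CYP3A4, LYZ, CD68, CD14, KRT19, EPCAM, SPP1, CD24, CFTR, SOX9, PROM1, KRT7, PTPRC, MARCO, ACTA2 and DCN were named after their values were seen. Alternatives were a pseudocount or a filter of 0.1, no filter, TPM, quantile normalization, eBayes without trend, a separate fit of each line, paralogs summed, the replicate number as a block, and leaving out libraries. The block within each cell line and the medians of lists with libraries left out were added after seeing the data. The fit was tested on simulated data. Figures were drawn with matplotlib 3.10.9, and tables made with NumPy 2.4.6 and pandas 2.3.3 under Python 3.11.15.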

Additional observations from a re-analysis of the deposited data

Results flagged for a closer look

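Within the 4 WT or the 4 SR libraries taken over both cell lines, 8 values of 5 members had a gap to the nearest library, divided by the range, past the 95% limit of Dixon's outlier test. Of 20 such groups chance flags about 1 in 20, and each group mixes cell lines and holds values near 0. HepG2 WT replicate 2 was the high library for SAA1 (0.871), SAA2 (0.908), CRP (1) and HPX (0.843) among the WT libraries. HepG2 SR replicate 2 was the high library for SAA1 (1), SAA2 (0.983) and HPX (0.972) among the SR libraries, and Huh7 SR replicate 1 was the low one for HP (0.916). The first of these libraries also listed the most genes above 0, and whether this bears on its values was not tested.

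By the unadjusted p of the test of the difference, the SR change of CEBPB differed between the cell lines, at -1.50 on the log2 scale (SE 0.57, limma unadjusted p = 0.0356, adjusted p = 1). It was 0.08 in HepG2, not called, and -1.42 in Huh7. By this test 0.606% of all genes were called, and 0% by adjusted p. The genes screened were the tested members and FGL1, TF, SERPINA6, ITIH2, JAK1, CEBPA, CEBPB and HNF4A. All but the members had been called in SR versus WT in the same data. Of the 16 transcription factors of acute phase promoters, 2 were called lower in this test.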

How the results depend on the processing

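With 2 libraries per group, no known depth and profiles that did not follow the labelled cell line, most changes of the members stayed within the spread between libraries. Of 239 fold changes of single genes computed under alternatives that left out no single library, 219 kept direction and side of the threshold, 14 fell below it, 2 passed it and 4 reversed; of 176 with a library left out, 128 kept both, 34 fell below it, 5 passed it and 9 reversed. The cause was not tested for any of them.

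In HepG2 the count of members called (0) moved in some fits that left out libraries, and the count over all genes moved too. Every such fit has 1 library in a group, so its counts are not given. In Huh7 the 1 call, SAA4, was lost (0) with no filter, with TPM and with eBayes without trend (limma, unadjusted p = 0.0644, unadjusted p = 0.0522 and unadjusted p = 0.0507). Over all genes 357, 338 and 268 were called in these fits, against 283 in the main one. Leaving out libraries moved the Huh7 count as well. It also moved the counts for the average over both lines (0), the difference between the lines (0) and the comparison of the cell lines (1). Between the cell lines the gene called was HP in the main fit and HPX or SAA4 in some fits that left out libraries. Fits without the 3 libraries that stand apart have 1 library in 3 of the groups, which are assumed to vary like HepG2 WT.

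These log2 fold changes reversed, and are given with their lowest and highest values over the 8 fits that each left out a library. In HepG2, SAA4 was 1.24 (range -2.53 to 1.24), HPX -0.95 (-0.95 to 4.33), ORM1 0.20 (-2.87 to 0.20) and ORM2 0.20 (-3.64 to 0.20), both without SR replicate 2 and without the 3 libraries, and HP was -0.16 (-0.16 to 2.86) without WT replicate 1. In Huh7, HP was -0.42 (-0.42 to 4.99), ITIH4 -0.29 (-0.29 to 2.32) and ORM2 -0.34 without SR replicate 2, and ORM2 was -0.51 (-0.51 to 2.83) without WT replicate 1.

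WT and SR share replicate numbers that name no common culture. Across the 15173 tested genes, the difference between replicates 1 and 2 in WT correlated with that in SR at 0.12 in HepG2 and 0.80 in Huh7. In Huh7 the first replicates of both groups are among the libraries that stand apart. Between the first Huh7 replicates the SR to WT fold was 2.94 for SAA4, 2.54 for ORM1, 2.67 for ORM2, 1.91 for HPX and 0.604 for ITIH4. With the replicate block, the Huh7 call of SAA4 was lost (0 members called, limma unadjusted p = 0.0601). With the block within each cell line, 1 member (SAA4, limma unadjusted p = 0.0318) was still called in Huh7, 1 (HPX) in HepG2, 1 in the average and 2 (HPX and HP) between the cell lines. Over all genes that block called 669 in Huh7, 1392 in HepG2, 1509 in the average and 2488 between the cell lines.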
